A study of Mus musculus with 7 samples.

Results

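The 9 genes described here encode secreted macrophage cytokines outside the IL-1 family and the receptors for TNF. They are Tnf, Il6, Il10, Il23a, Csf1, Csf2, Csf3, Tnfrsf1a and Tnfrsf1b, and were taken by symbol from the 55417 symbols of the count table. The rule names the genes and uses no measured value, but the set was chosen with earlier results of these data known. All 9 were found and all 9 passed the filter on low counts, which left 13329 tested genes. RNA sequencing was done on RAW264.7, a mouse macrophage-like cell line derived from a virus-induced tumour, carrying a short hairpin RNA. The hairpin shDpep2.968 (n = 2 libraries) and the hairpin shDpep2.759 (n = 2) are directed at Dpep2, a gene for a leukotriene-cleaving dipeptidase of the cell membrane, and shNT (n = 3) is the control hairpin. The groups share the cell line and are labelled with no other genotype or treatment, and no stimulus is named in the labels. The vector, the selection, the time after its delivery and whether each hairpin line is 1 clone were not given in the sources used here. The labels do not say that replicates came from separate cultures, so p-values measure the spread between these libraries, which may be technical.

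Total counts ran from 16548648 to 18401060 per library. Dpep2 was measured at 22.4 and 17.9 CPM (counts scaled to library size) in shDpep2.968 cells and 24.9 and 19.5 CPM in shDpep2.759 cells, against 55.6, 60.3 and 52.1 CPM in shNT cells, so every library carrying a Dpep2 hairpin lay below every control library. Of 12 macrophage marker genes 11 passed the filter on low counts, while Mertk had only 0 to 6 counts per library (at most 0.347 CPM). The most abundant were Lyz2 (lysozyme, 8817 to 14049.8 CPM) and Cd14 (the lipopolysaccharide co-receptor, 1838 to 2273 CPM). T and NK cell, mast cell and epithelial marker lists summed to at most 0.347 CPM in any library.

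TNF is made as a membrane protein and released by cleavage. It signals through TNFR1, encoded by Tnfrsf1a, which carries a death domain and is found on most cells, and through TNFR2, encoded by Tnfrsf1b, which lacks that domain and binds TRAF2 directly. Macrophages are a main source of TNF, IL-6 and IL-10. IL-6 signals through gp130 and STAT3, IL-10 restrains macrophage cytokine production through the same STAT factor, and IL-23 is a pair of the p19 chain encoded by Il23a and the p40 chain encoded by Il12b. The colony-stimulating factors drive myeloid cells: CSF-1 maintains macrophages, GM-CSF, encoded by Csf2, acts on macrophages and dendritic cells, and G-CSF, encoded by Csf3, acts on the neutrophil lineage.

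Averaged over the Dpep2 hairpins and compared with shNT, Tnfrsf1b, Il10 and Il6 rose about 2-fold and Il23a fell, whereas Tnf and Csf3, the most abundant of the secreted factors, did not pass the test. That was 3 higher and 1 lower of 9 genes tested, in a comparison where 3.44% of all tested genes were higher and 4.15% lower (7.59% in all; edgeR quasi-likelihood test, Benjamini-Hochberg adjusted p under 0.05). At an unadjusted p under 0.05 there were 5 genes, the fifth being Tnfrsf1a, against 22.9% of all tested genes. The 7.59% stand for 1012 genes, a count that was 321, 356 and 492 in fits that omitted shNT replicate 3, shNT replicate 2 and shDpep2.968 replicate 2, and in each of these fits 2 of the 9 genes were called (Tnfrsf1b and Il10). All 4 hairpin libraries lay above all 3 shNT libraries for 4 genes (Tnfrsf1b, Il10, Tnfrsf1a and, by a margin of less than 1 count, Csf1), where 9.03% of tested genes did so, and below them for Il23a, where 9.51% did. The median log2 fold change of the 9 genes was 0.46, and that of all tested genes was 0.0025.

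**Figure D1:**
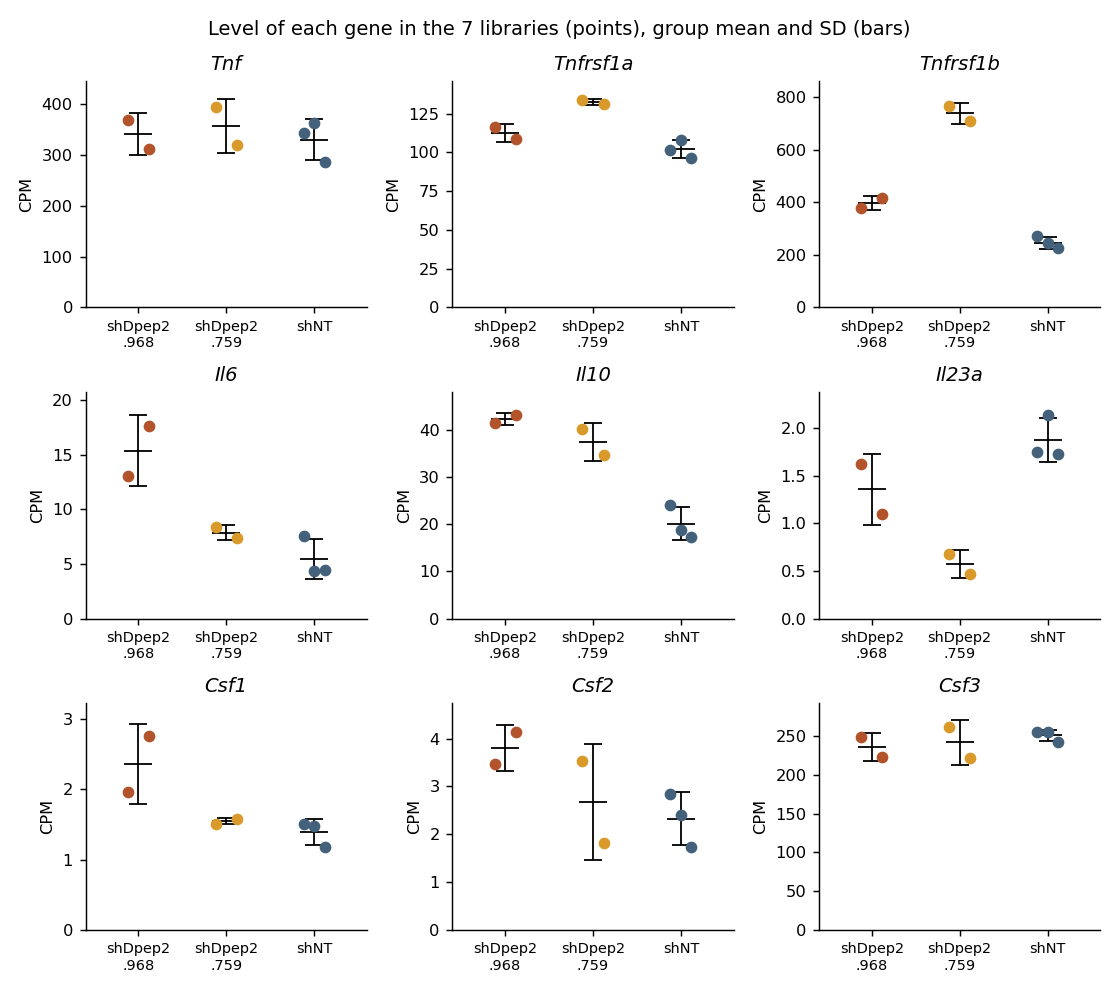
Level of each of the 9 genes in CPM (vertical axes, each from 0) in the 7 libraries (points) with the mean and SD of each group (bars), for shDpep2.968 (n = 2), shDpep2.759 (n = 2) and shNT (n = 3). Tnfrsf1b is highest with shDpep2.759 (765 and 710.2 CPM), Il6 is highest with shDpep2.968 (13.1 and 17.7 CPM), Il10 is higher with each Dpep2 hairpin than in any shNT library, and the groups overlap for Tnf and Csf3.

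The proximal promoters of Il6, Tnf and Tnfrsf1b are shown because they belong to a cytokine that rose, a cytokine that did not pass the test and a receptor that rose. Each is the 250 bases before the RefSeq start on build GRCm38.p6, written 5′ to 3′ on the gene's own strand, with matches to the searched motifs in capitals. Il6 lies at chr5:30012864-30013113 on the plus strand, Tnf at chr17:35202008-35202257 on the minus strand and Tnfrsf1b at chr4:145246871-145247120 on the minus strand.
Il6: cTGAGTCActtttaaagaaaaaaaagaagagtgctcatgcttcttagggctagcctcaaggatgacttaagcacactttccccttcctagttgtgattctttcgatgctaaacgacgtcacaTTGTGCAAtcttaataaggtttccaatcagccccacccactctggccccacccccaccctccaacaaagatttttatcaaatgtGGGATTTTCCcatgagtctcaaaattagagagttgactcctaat
Tnf: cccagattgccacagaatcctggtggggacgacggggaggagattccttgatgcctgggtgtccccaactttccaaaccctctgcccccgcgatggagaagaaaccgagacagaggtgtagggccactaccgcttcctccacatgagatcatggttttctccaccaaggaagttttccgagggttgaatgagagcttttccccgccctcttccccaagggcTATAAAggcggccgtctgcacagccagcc
Tnfrsf1b: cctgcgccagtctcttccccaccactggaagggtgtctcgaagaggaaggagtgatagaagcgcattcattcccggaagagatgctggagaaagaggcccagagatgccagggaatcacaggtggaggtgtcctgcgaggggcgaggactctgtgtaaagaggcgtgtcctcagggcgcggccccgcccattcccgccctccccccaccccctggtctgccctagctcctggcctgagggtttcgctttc

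The Il6 window held the NF-kB motif (GGGA, any base, TT, any base, CC; both strands searched, and N below is any base) as GGGATTTTCC, from 44 to 35 bases before the start, a motif found in 0.981% of 32817 RefSeq promoters of this length. It also held the AP-1 motif TGANTCA as TGAGTCA, from 249 to 243 bases before the start (6.75% of promoters), and the C/EBP motif TTGNGCAA as TTGTGCAA, from 128 to 121 bases before it (2.61%). This C/EBP form was set after a looser one, TTGNNNAA, had been found in 33.3% of promoters and in the Tnf, Il6 and Csf2 windows, so its share and its matches depend on that choice. The Tnf window held the TATA motif TATAAA, from 29 to 24 bases before the start (12.4%). None of these motifs, nor the CRE motif TGACGTCA (1.55% of promoters) or the PU.1 motif GAGGAANT (5.97%), was found in the Tnfrsf1b window. Promoter windows were found for 6 of the 9 genes. In the others, Csf1 matched the NF-kB motif, Csf2 matched the C/EBP motif and Tnfrsf1a matched none; a match describes letters only.

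Tnf, the ligand, was measured at 370 and 311 CPM in shDpep2.968 cells and 395 and 320 CPM in shDpep2.759 cells, against 343, 363 and 286 CPM in shNT cells. The groups overlapped, and while the highest library carried shDpep2.759, the lowest carried shNT. The averaged log2 fold change was 0.08 (SE 0.12, 95% interval -0.19 to 0.35, adjusted p = 0.757), which leaves room for a change of up to 1.27-fold upward. Its sign turned negative, at up to -0.02, when shDpep2.759 replicate 1 or shNT replicate 3 was left out.

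Tnfrsf1b, which encodes TNFR2, had the smallest adjusted p of the 9 genes in the averaged comparison. It stood at 378 and 415 CPM in shDpep2.968 cells and 765 and 710.2 CPM in shDpep2.759 cells, against 270.4, 243 and 225 CPM in shNT cells. The 3 groups did not overlap, with the second hairpin highest and the control lowest. Averaged over the hairpins it rose 2.20-fold (log2 fold change 1.14, SE 0.11, 95% interval 0.89 to 1.38, adjusted p = 0.000137), and this call held whichever of the 7 libraries was left out. With shDpep2.968 it rose 1.61-fold (adjusted p = 0.00988), a call lost without shDpep2.968 replicate 2 (adjusted p = 0.147), shNT replicate 2 (0.0531) or shNT replicate 3 (0.0657). With shDpep2.759 it rose 3.0-fold (adjusted p = 6.86e-05). In these bulk samples, more RNA per cell and more cells of a type that holds the RNA cannot be told apart.

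Tnfrsf1b was the only one of the 9 genes called between the hairpins themselves, where 0.585% of tested genes were lower with shDpep2.968 than with shDpep2.759, 0.255% were higher and 0.84% were called in all. The 0.84% stand for 112 genes, a count that was 6 to 71 in fits omitting either shDpep2.968 library, shDpep2.759 replicate 1 or shNT replicate 2 or 3, and 1070 in the fit omitting shDpep2.759 replicate 2. The log2 difference was -0.89 for shDpep2.968 minus shDpep2.759 (SE 0.14, 95% interval -1.20 to -0.59, adjusted p = 0.0161). It was no longer called without shDpep2.968 replicate 1 (adjusted p = 0.100) or shDpep2.968 replicate 2 (0.148). Dpep2 itself stood at 20.1 ± 3.2 CPM with shDpep2.968 and at 22.2 ± 3.8 CPM with shDpep2.759 (SD, n = 2 each). The summed levels of 2 marker lists of other myeloid cells were also highest with shDpep2.759, but each sum was mostly 1 gene. For dendritic cells this was Cd83, at 31.0 and 38.1 CPM in the shDpep2.968 libraries, 66.6 and 62.4 CPM in those of shDpep2.759 and at most 16.3 CPM in the controls. For neutrophils it was S100a8. The sums therefore mostly describe these genes and say little of the other members. Among those, the low dendritic cell marker Ccr7 was also higher with shDpep2.759 (3.14 and 3.22 CPM). The shDpep2.968 libraries had 0.636 and 0.346 CPM of Ccr7, and no control exceeded 0.725 CPM. Its log2 difference was -2.68 for shDpep2.968 minus shDpep2.759 (edgeR test, adjusted p = 0.0173). Besides Cd83 and Ccr7, no dendritic cell marker was called between the hairpins. The 8 dendritic cell markers summed to 40.5 to 47.3 CPM in shDpep2.968 cells and 71.8 to 73.1 CPM in shDpep2.759 cells, against 18.03 to 21.03 CPM in shNT cells. On average 2 of the 5 tested members rose (Cd83, the most abundant, and Itgax), where 3.44% of all tested genes did, and Cd209a was at 0. The 8 neutrophil markers summed to 34.6 to 50.7 CPM in shDpep2.968 cells and 100.3 to 237 CPM in shDpep2.759 cells, against 17.6 to 34.6 CPM in shNT cells. Nearly all of that sum was S100a8, the 1 member tested was not called, and Ly6g and Ltf were at 0. The 12 macrophage markers summed to 16193 to 16296 CPM in shDpep2.968 cells and 18147 to 21917 CPM in shDpep2.759 cells, against 15473 to 16971 CPM in shNT cells. Of the 11 tested 2 rose on average (Adgre1 and Fcgr1), where 3.44% of all tested genes did. The part of these markers in the Tnfrsf1b result was not tested.

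Tnfrsf1a, which encodes TNFR1, was measured at 117 and 109 CPM in shDpep2.968 cells and 134 and 131 CPM in shDpep2.759 cells, against 102, 108 and 96.3 CPM in shNT cells. Every hairpin library lay above every shNT library, the closest pair by less than 1 CPM. The averaged log2 fold change was 0.26 (SE 0.10, 95% interval 0.05 to 0.46) and did not pass the threshold (adjusted p = 0.122). It did pass with a correction for GC content and length (log2 fold change 0.36, adjusted p = 0.00706), as did shDpep2.968 (0.0479) and shDpep2.759 (0.00859) alone, and DESeq2 called it with shDpep2.759 (0.0460).

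**Figure D2:**
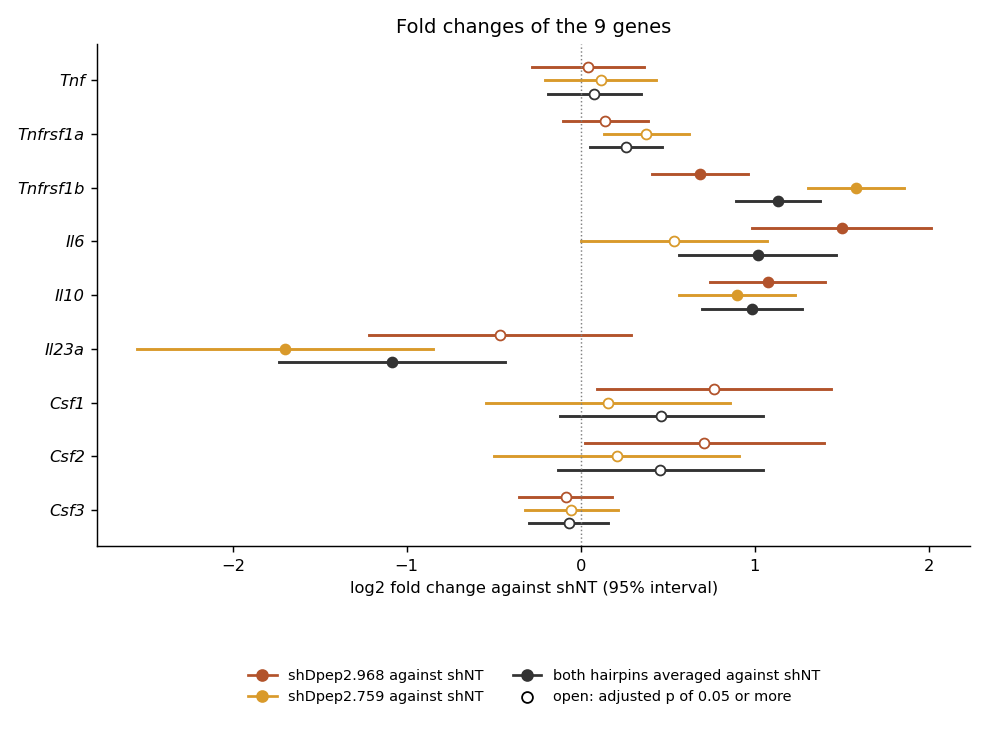
Log2 fold change against shNT (horizontal axis) of each of the 9 genes, with its 95% interval, for shDpep2.968, shDpep2.759 and the average of both; filled points have an adjusted p under 0.05. Il10 and Tnfrsf1b are filled in all 3 comparisons, Il6 with shDpep2.968 and on average, and Il23a with shDpep2.759 and on average.

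Il10 rose with each Dpep2 hairpin. It stood at 41.5 and 43.2 CPM in shDpep2.968 cells and 40.3 and 34.7 CPM in shDpep2.759 cells, against 24.05, 18.9 and 17.4 CPM in shNT cells. The lowest hairpin library was above the highest control library. The averaged rise was 1.98-fold (log2 fold change 0.99, SE 0.13, 95% interval 0.70 to 1.28, adjusted p = 0.000967). Each hairpin alone also passed, with 2.11-fold for shDpep2.968 (adjusted p = 0.00227) and 1.87-fold for shDpep2.759 (adjusted p = 0.00471), from the same 3 control libraries. No fit that left out a library lost any of these 3 calls, the highest adjusted p over all alternatives being 0.0130 on average, 0.0461 for the first hairpin and 0.0407 for the second. Between the hairpins the log2 difference was 0.18 (95% interval -0.19 to 0.54, adjusted p = 0.646).

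Il6 was low in every library and was highest with shDpep2.968. The levels were 13.1 and 17.7 CPM (226 and 307 counts) in shDpep2.968 cells and 8.36 and 7.38 CPM (149 and 126 counts) in shDpep2.759 cells, against 7.55, 4.38 and 4.41 CPM (125, 80 and 79 counts) in shNT cells. The shDpep2.968 libraries stood above all others, whereas shDpep2.759 replicate 2 fell just below shNT replicate 1. The averaged rise was 2.02-fold (log2 fold change 1.02, SE 0.21, 95% interval 0.56 to 1.47, adjusted p = 0.0107). It rose 2.83-fold with shDpep2.968 (adjusted p = 0.00437), and its log2 fold change with shDpep2.759 was 0.53 (SE 0.25, adjusted p = 0.257). The averaged call was lost without shDpep2.968 replicate 2 (adjusted p = 0.0543), shNT replicate 2 (0.0732) or shNT replicate 3 (0.0841), or with the hairpin libraries fitted as 1 group (0.101). The shDpep2.968 call was lost without shDpep2.968 replicate 2 (0.104), and with shDpep2.759 the gene was called only when shNT replicate 1 was left out (0.0464). The log2 difference between the hairpins was 0.97 for shDpep2.968 minus shDpep2.759 (95% interval 0.40 to 1.53, adjusted p = 0.108). That difference was called by DESeq2 (0.0362), with no low-count filter (0.00138) and with the GC and length correction (0.0496).

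Il23a, the p19 chain of IL-23, was among the least abundant of the 9 genes and fell. It stood at 1.62 and 1.09 CPM (28 and 19 counts) in shDpep2.968 cells and 0.673 and 0.469 CPM (12 and 8 counts) in shDpep2.759 cells, against 1.75, 2.14 and 1.73 CPM (29, 39 and 31 counts) in shNT cells. All hairpin libraries were below the controls, shDpep2.968 replicate 1 only narrowly. Its averaged log2 fold change was -1.08 (SE 0.30, 95% interval -1.73 to -0.43, adjusted p = 0.0458), and that with shDpep2.759 was -1.70 (SE 0.39, adjusted p = 0.0257). With shDpep2.968 the log2 fold change was -0.47 (SE 0.35, adjusted p = 0.446). The averaged call was lost in 10 of 17 alternatives, including DESeq2 (adjusted p = 0.0984), and without shDpep2.968 replicate 2 (0.130), shDpep2.759 replicate 2 (0.107) or shNT replicate 1 (0.0675), 2 (0.208) or 3 (0.136). The shDpep2.759 call was lost without shDpep2.759 replicate 1 (0.0552) or 2 (0.110) or shNT replicate 2 (0.0996) or 3 (0.0767). The partner chain gene Il12b did not pass the low-count filter and had at most 0.234 CPM in any library.

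**Figure D3:**
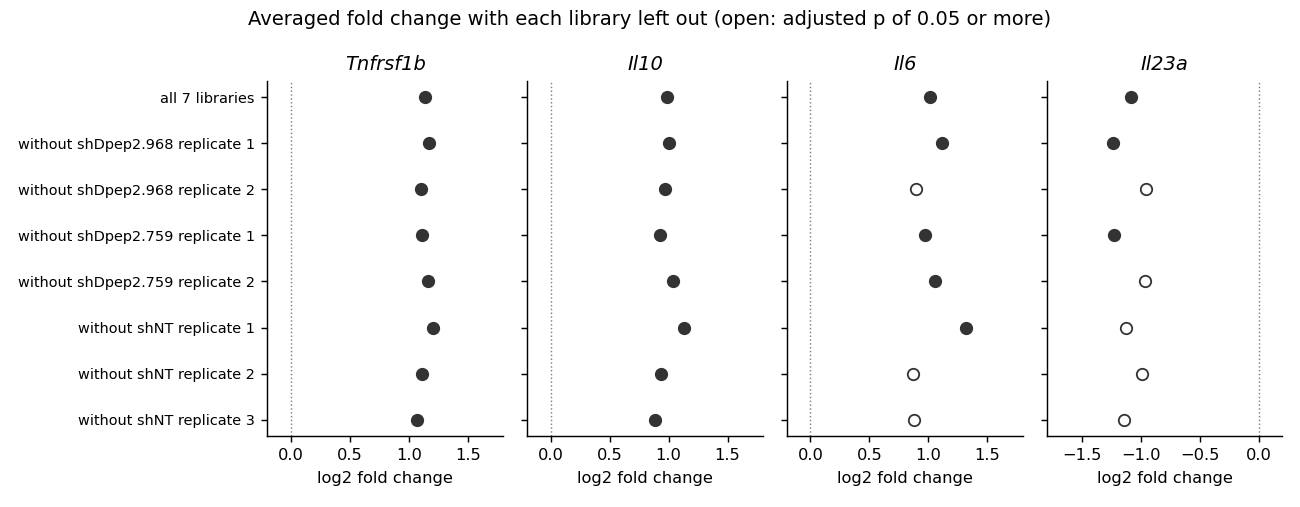
Log2 fold change averaged over the Dpep2 hairpins against shNT (horizontal axes) for Tnfrsf1b, Il10, Il6 and Il23a with all 7 libraries (top row) and with each library left out in turn; open points have an adjusted p of 0.05 or more. Tnfrsf1b and Il10 stay filled throughout, Il6 is open in 3 of the 7 fits and Il23a in 5.

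None of the 3 colony-stimulating factor genes was called in any comparison. Csf3 was abundant, at 249 and 223 CPM in shDpep2.968 cells and 262 and 222 CPM in shDpep2.759 cells, against 256, 255 and 243 CPM in shNT cells. The groups overlapped, and 1 library of each Dpep2 hairpin lay below all controls. The averaged log2 fold change was -0.07 (SE 0.10, 95% interval -0.29 to 0.15, adjusted p = 0.742), and its sign turned with the GC and length correction (0.02).

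Csf1 and Csf2 were low, and their highest libraries carried shDpep2.968. Csf1 stood at 1.97 and 2.765 CPM (34 and 48 counts) in shDpep2.968 cells and 1.51 and 1.58 CPM (27 counts each) in shDpep2.759 cells, against 1.51, 1.48 and 1.17 CPM (25, 27 and 21 counts) in shNT cells. The shDpep2.968 libraries were above the others, and shDpep2.759 lay next to the controls. Its averaged log2 fold change was 0.46 (SE 0.27, 95% interval -0.12 to 1.05, adjusted p = 0.335).

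Csf2 stood at 3.47 and 4.15 CPM (60 and 72 counts) in shDpep2.968 cells and 3.53 and 1.82 CPM (63 and 31 counts) in shDpep2.759 cells, against 2.84, 2.41 and 1.73 CPM (47, 44 and 31 counts) in shNT cells. The shDpep2.759 libraries differed 1.95-fold from each other; replicate 1 lay above all controls, and replicate 2 lay between the lowest control and the others. Its averaged log2 fold change was 0.46 (SE 0.27, 95% interval -0.13 to 1.05, adjusted p = 0.347). With shDpep2.968 alone the log2 fold changes were 0.77 for Csf1 (adjusted p = 0.163) and 0.71 for Csf2 (0.199). In GENCODE M21 the antisense gene Gm12223 overlaps Csf2 on the opposite strand. It had 0 to 1 counts per library, and whether the counting used strand is not given in the sources used here.

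Taken hairpin by hairpin, 3 of the 9 genes were higher and none lower with shDpep2.968 (Tnfrsf1b, Il10 and Il6), where 2.29% of tested genes were higher and 2.96% lower (5.25% in all). With shDpep2.759, 2 were higher (Tnfrsf1b and Il10) and 1 lower (Il23a), where 2.72% were higher and 2% lower (4.73% in all). The libraries of shDpep2.968 lay above all shNT libraries for 6 of the 9 genes and below them for 1, where 20.7% and 22.7% of tested genes did so (43.4% in all). Those of shDpep2.759 lay above for 4 and below for 1, where 18.2% and 18% did so (36.3% in all). The shDpep2.968 libraries lay above those of shDpep2.759 for 4 genes and below them for 2, where 20.4% and 22.5% did so (42.9% in all), and 3 genes had an unadjusted p under 0.05 between the hairpins, where 15% of tested genes did. The median log2 fold changes of the 9 genes were 0.69 with shDpep2.968 (all tested genes, -0.0041) and 0.21 with shDpep2.759 (all tested genes, 0.0033). These comparisons share the shNT libraries. The 5.25% stand for 700 genes, a count that dropped to 69 when shDpep2.968 replicate 2 was left out, 401 for shDpep2.968 replicate 1, 218 for shNT replicate 2 and 191 for shNT replicate 3, and grew to 1305 and 1309 when shDpep2.759 replicate 1 or 2 was left out. The 4.73% stand for 630 genes, which became 299 without shNT replicate 2 and 253 without shNT replicate 3.

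Per length of transcript, on the scale of CPM per kb of the longest protein-coding GENCODE M21 transcript of each gene, Tnf and Csf3 led in the control cells. A shorter transcript would give a higher value, so the order of the genes depends on this choice. In shNT cells Tnf averaged 202 and Csf3 178 CPM per kb, and their ranges overlapped. Tnfrsf1b followed at 64.5, Tnfrsf1a at 47.4 and Il10 at 15.4 CPM per kb, with no overlap between neighbours. Csf2 at 2.91 and Il6 at 2.33 CPM per kb overlapped, and Il23a at 1.38 and Csf1 at 0.332 CPM per kb were lowest. In shDpep2.759 cells Tnfrsf1b averaged 193 CPM per kb, and its libraries (186 to 200.5 CPM per kb) overlapped those of Tnf (195.5 to 241 CPM per kb). In shDpep2.968 cells Il6 at 6.56 CPM per kb stood above Csf2 at 4.76 CPM per kb, and the ranges did not overlap.

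Ratios of counts within a library, which need no scaling between libraries, were computed after the levels had been seen. There were 3.25 and 3.83 counts of Tnfrsf1b per count of Tnfrsf1a with shDpep2.968 and 5.71 and 5.41 with shDpep2.759, against 2.66, 2.25 and 2.34 with shNT. The groups did not overlap, and the mean log2 ratio was 0.88 higher with the Dpep2 hairpins (two-sided exact permutation test over 35 splits, p = 0.0571, 0.114 adjusted over 4 ratios). Il10 had 112 and 139 counts per 1000 counts of Tnf with shDpep2.968 and 102 and 108 with shDpep2.759, against 70.1, 52.1 and 60.7 with shNT. All hairpin libraries were above the controls (log2 difference 0.92, exact permutation p = 0.0286, the smallest this design allows, adjusted 0.114). Il6 had 35.3 and 56.8 counts per 1000 counts of Tnf with shDpep2.968 and 21.2 and 23.0 with shDpep2.759, against 22.01, 12.1 and 15.4 with shNT (log2 difference 0.97, exact permutation p = 0.143, adjusted 0.171). Csf2 had 13.9 and 18.6 counts per 1000 counts of Csf3 with shDpep2.968 and 13.5 and 8.18 with shDpep2.759, against 11.1, 9.45 and 7.13 with shNT (log2 difference 0.52, exact permutation p = 0.171, adjusted 0.171). None of the 4 ratios passed 0.05 after adjustment, but even the ratio at the smallest p possible (0.0286) had an adjusted p of 0.114. A single ratio thus could not pass in this design, and no conclusion is drawn from the failure. The permutation test also treats the libraries of both Dpep2 hairpins as 1 group.

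**Figure D4:**
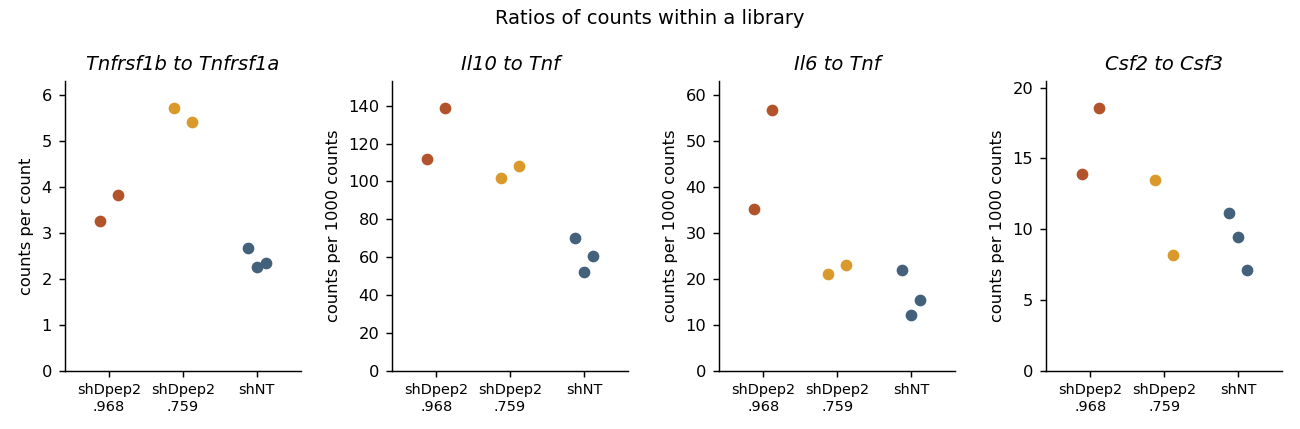
Ratio of the counts of a pair of genes within each library (points; vertical axes from 0) for shDpep2.968, shDpep2.759 and shNT. The Tnfrsf1b to Tnfrsf1a and Il10 to Tnf ratios of all hairpin libraries lie above those of the shNT libraries, and the Il6 to Tnf and Csf2 to Csf3 ratios overlap.

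The genes around these cytokines were described through 12 lists, with counts for the averaged comparison. In that comparison 3.44% of all tested genes were higher and 4.15% lower (7.59% in all). No list was tested as a set, and counts near these shares are not results about a list. Of 23 adaptors, kinases and ubiquitin enzymes of the TNF receptor complex, all tested, 2 rose and none fell (median log2 fold change -0.06, against 0.0025 for all tested genes). Tnfaip3, which encodes the ubiquitin-editing inhibitor A20, stood at 31.9 and 34.04 CPM in shDpep2.968 cells and 56.0 and 60.4 CPM in shDpep2.759 cells, against at most 21.3 CPM in shNT cells (log2 fold change 1.08, adjusted p = 0.000137). Traf1, a TNFR2 adaptor, stood at 36.1 and 39.8 CPM in shDpep2.968 cells and 65.6 and 55.5 CPM in shDpep2.759 cells, against 36.01, 35.995 and 36.3 CPM in shNT cells. Its averaged log2 fold change of 0.41 passed (adjusted p = 0.0356), but the shDpep2.968 value of 0.07 did not (0.769).

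Release and mRNA decay were also covered. Of 6 genes for release from the cell surface 5 were tested and none passed in any comparison (median 0.09); Adam17, the TNF convertase, had a log2 fold change of 0.10 (adjusted p = 0.612) and Adam10 of 0.09 (0.737), and Timp3 was at 0. Of 12 genes for proteins that control stability of cytokine mRNA 1 fell and none rose (median 0.12): Zfp36l1, an AU-rich element binding protein, fell by 0.57 (adjusted p = 0.0192). Other TNF family ligands had 7 of 17 tested, 2 higher and none lower (median 0.31): Tnfsf12, which encodes TWEAK (log2 fold change 0.70, adjusted p = 0.0231), and Tnfsf13b, which encodes BAFF (0.62, 0.0416). Taken alone, shDpep2.968 passed for both (adjusted p = 0.00627 and 0.0207) and shDpep2.759 for neither (0.492 and 0.363). Other TNF receptor family genes had 15 of 26 tested, 2 higher and 2 lower (median 0.19). Tnfrsf8, which encodes CD30, had a log2 fold change of 1.30 (adjusted p = 0.00187) and Tnfrsf9, which encodes 4-1BB, of 0.92 (0.00523), while Tnfrsf13b, which encodes the receptor TACI, fell by 0.80 (0.00658) and the decoy receptor gene Tnfrsf22 by 0.61 (0.0173).

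Among the interleukin families, the IL-6 family had 7 of 11 tested, 1 higher and none lower (median 0.27). This was Clcf1, a cytokine of that family, at 2.95 and 3.34 CPM in shDpep2.968 cells and 3.03 and 3.57 CPM in shDpep2.759 cells, against 1.51, 1.10 and 0.671 CPM in shNT cells (log2 fold change 1.56, adjusted p = 0.0062). Of the IL-12 family 3 of 8 were tested and 1 fell (median 0.16): Il12rb1, a receptor chain shared by IL-12 and IL-23, fell by 0.90 (adjusted p = 0.0416). Its hairpin and shNT libraries overlapped, and its call was lost in 9 of 17 alternatives. Neither hairpin alone passed (adjusted p = 0.206 with shDpep2.968 and 0.052 with shDpep2.759). Of the IL-10 receptor chains and related cytokines 3 of 9 were tested and 1 rose (median 0.49): Il10rb, with a log2 fold change of 0.49 (adjusted p = 0.0266).

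Receptors for the colony-stimulating factors and IL-34 had 6 of 10 tested, 1 higher and none lower (median 0.04). That gene was Csf2rb2, with a log2 fold change of 0.63 (adjusted p = 0.00574); as a close paralog of Csf2rb it may share reads with that gene, and its value is uncertain. Between the hairpins 2 members were lower with shDpep2.968 than with shDpep2.759, where 0.585% of all tested genes were. Both were named after their values had been seen. Csf3r, the G-CSF receptor, stood at 7.23 and 6.74 CPM in shDpep2.968 cells and 19.9 and 12.4 CPM in shDpep2.759 cells, against 11.0, 12.9 and 13.4 CPM in shNT cells (log2 difference -1.21 for shDpep2.968 minus shDpep2.759, adjusted p = 0.0279), and Csf2rb had a log2 difference of -0.66 (0.0372). Both calls were lost in fits that omitted either shDpep2.968 library, shDpep2.759 replicate 1 or shNT replicate 3, and that of Csf2rb also without shNT replicate 2. Of 20 signalling genes of the CSF-1 receptor 2 rose and none fell (median 0.04): the kinases Src (1.18, adjusted p = 0.000504) and Syk (0.41, 0.0262).

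Of 32 other secreted cytokines 17 were tested and 1 fell (median -0.13). Spp1, which encodes osteopontin, stood at 10562 and 12511 CPM in shDpep2.968 cells and 13876 and 9852 CPM in shDpep2.759 cells, against 20140.1, 19516 and 20007 CPM in shNT cells. Its log2 fold change was -0.77 (adjusted p = 0.00346). Of 33 transcription factors known to act on Tnf, Il6, Il10, Il12b or Il23a 32 were tested, 2 rose and 2 fell (median 0.01). Maf had a log2 fold change of 1.25 (adjusted p = 0.000981) and Prdm1 of 1.12 (0.042), while Nfil3 fell by 0.55 (0.0101) and Atf4 by 0.42 (0.0344). The part of these factors in the levels of the cytokine genes was not tested. The calls of Tnfaip3, Tnfrsf8, Tnfrsf9, Tnfrsf13b, Clcf1, Src, Spp1 and Maf held in all 17 alternatives, and every other list gene named here as passing on average lost its call in at least 1 fit that left out a library. Of these others, Tnfsf12, Tnfsf13b and Nfil3 passed alone only with shDpep2.968. Traf1, Zfp36l1, Tnfrsf22, Csf2rb2, Syk and Prdm1 did so only with shDpep2.759, and Il12rb1, Il10rb and Atf4 with neither hairpin alone.

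**Figure D5:**
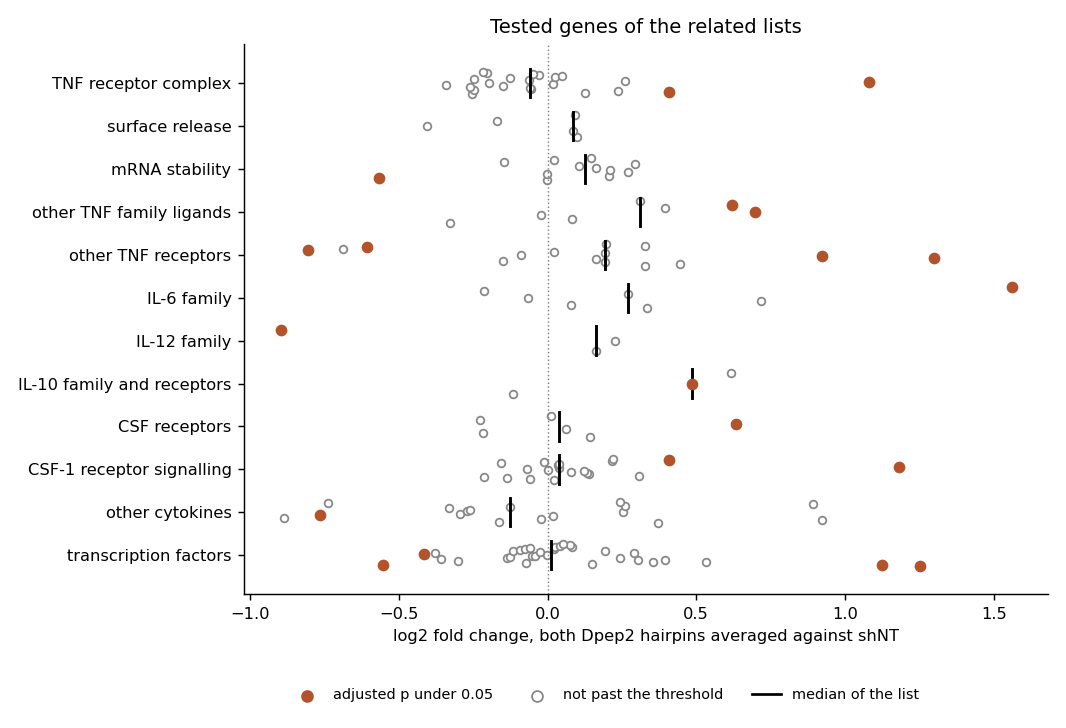
Log2 fold change averaged over the Dpep2 hairpins against shNT (horizontal axis) for every tested gene of the 12 lists (rows); filled points have an adjusted p under 0.05 and the bar is the median of the list. The filled points farthest from 0 on the right are Clcf1, Tnfrsf8, Maf and Src, and on the left Il12rb1 and Tnfrsf13b.

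For the 5 genes with a mean of at least 10 CPM, the tested genes most like them over the 7 libraries were found by Pearson's r of log2(CPM + 1) among 8643 genes. The 7 libraries share their groups, so these values are a description. Tnfrsf1b was most like the chemokine gene Cxcl10 (r = 0.992), Klk9 (0.990) and Wdr45b (0.990). Il10 was most like Fgd3 (0.995), Pmm2 (0.995) and Trim30d (0.985), and Tnfrsf1a was most like Sirpa (0.989), Cmtm3 (0.980) and Irak2 (0.979). Tnf was most like Tcf19 (0.950), Polr2j (0.938) and Mrps11 (0.937), and Csf3 was most like Arl11 (0.983), Cfap20 (0.965) and Tango2 (0.952).

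The remaining marker lists showed little of other cells. B cell markers summed to 9.45 to 9.77 CPM in shDpep2.968 cells and 8.90 to 12.3 CPM in shDpep2.759 cells, against 14.5 to 19.6 CPM in shNT cells; Ighm fell, and Ms4a1 and Pax5 had at most 0.116 and 0.173 CPM in any library. Fibroblast markers summed to 2.20 to 2.42 CPM in shDpep2.968 cells and 3.53 to 3.69 CPM in shDpep2.759 cells, against 0.786 to 1.86 CPM in shNT cells; Dcn rose and Col1a2 was at 0. Endothelial markers summed to 6.09 to 7.13 CPM over all libraries with none called.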

How the data were processed

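Per the labels' protocols, RAW264.7 total RNA was extracted by a TIANGEN kit, and paired reads of 150 bp came from TruSeq Stranded Total RNA preparations. The authors deposited whole-number counts per gene symbol for the 7 libraries. The submitters' processing notes list the tools Trim Galore and Salmon with no version, and the build hg38, a human build, whereas the symbols are mouse. Whether the counts are rounded estimates is not stated, and neither the annotation nor the strand setting is given in the sources used here, so positions and lengths come from mouse references (GENCODE M21; RefSeq promoters on GRCm38.p6) and describe the genes, not the counting.

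Genes were kept by filterByExpr over the 3 groups, scaled by TMM and fitted in R 4.3.3 with edgeR 4.0.16 (robust quasi-likelihood, 1 mean per group, all 7 libraries, 4 residual degrees of freedom). P-values were Benjamini-Hochberg adjusted over 13329 genes within each of 4 comparisons, with a threshold of 0.05. CPM used TMM-scaled totals. edgeR's common coefficient of biological variation came to 13.8%. No pair of replicates agreed within sampling noise (chi-square of 15.5 to 44.9 for each degree of freedom). The fits were also run on simulated counts with the same planted changes for each Dpep2 hairpin and no batch or GC effect. Those runs therefore do not show how the fits behave where such effects or hairpin differences are present. Counts limit the precision most for Il23a, Csf1, Csf2 and Il6.

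The 9 genes, the 14 lists, the 9 marker lists and the motifs were chosen with earlier results of these data known; 2 of the lists and 1 marker gene are not reported here. In each list the up to 4 genes with the smallest p past the averaged threshold were named, or 2 genes as values where none passed. Likeness used genes with a mean of at least 10 CPM, leaving out clone, predicted-gene and pseudogene names. Alternatives were other size factors, library totals, other low-count filters, DESeq2 1.42.0, limma-voom (limma 3.58.1), no robust estimation, hairpins as 1 group, compared groups only, a replicate block, a GC and length correction (values for 97.1% of tested genes) and each library left out. Count ratios were added after seeing the data.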

Additional observations from a re-analysis of the deposited data

Results flagged for a closer look

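The Dpep2 hairpins differed from each other for 10 of the genes considered (the 9 genes, Dpep2, the lists reported, the marker lists and the genes most like 5 of the 9 over the libraries), by the edgeR test of the difference itself over 13329 genes. The number of genes considered is not given here, so the 10 cannot be set against the share of all tested genes. Klk9 was considered only because its levels resembled those of Tnfrsf1b over the same libraries, so its difference is not a separate result. Tnfrsf1b was lower with shDpep2.968 than with shDpep2.759 by a log2 difference of -0.89 (SE 0.14, adjusted p = 0.0161), with log2 fold changes against shNT of 0.69 with shDpep2.968 and 1.58 with shDpep2.759. The NF-kB inhibitor gene Tnfaip3 showed a log2 difference of -0.82 (SE 0.14, adjusted p = 0.0173), from 0.67 with shDpep2.968 and 1.49 with shDpep2.759. The TNFR2 adaptor gene Traf1 showed a log2 difference of -0.67 (SE 0.14, adjusted p = 0.0416), from 0.07 with shDpep2.968 and 0.75 with shDpep2.759. In each of these 3 genes both shDpep2.759 libraries were above both shDpep2.968 libraries. Without shDpep2.968 replicate 1 or 2 the Tnfrsf1b difference was no longer called (adjusted p = 0.100 and 0.148). That of Tnfaip3 was lost without either shDpep2.968 library or shNT replicate 3 (adjusted p up to 0.166), and that of Traf1 in 6 of 7 single-library omissions (up to 0.254). The log2 differences of the others were -1.21 for Csf3r (adjusted p = 0.0279), -0.66 for Csf2rb (0.0372), -0.95 for Fgr (0.0266), -0.79 for Adgre1 (0.0164), -2.68 for Ccr7 (0.0173), -0.90 for Cd83 (0.0173) and -1.03 for Klk9 (0.0264), all lower with shDpep2.968 than with shDpep2.759, and each lost its call in 3 to 5 of those 7 omissions. In all, 112 genes were called between the hairpins, 0.84% of tested genes; omitting shDpep2.968 replicate 1 gave 13 and its replicate 2 gave 6, omitting shDpep2.759 replicate 1 gave 33 and its replicate 2 gave 1070, and omitting shNT replicate 2 or 3 gave 71 or 28.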

How the results depend on the processing

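Of 612 recomputed values of the 9 genes (17 alternatives, 4 comparisons), 561 kept their direction and side of the threshold, 26 lost their call, 8 gained one and 17 reversed in sign; of 442 values of Dpep2 and the list genes named by rule, 368 kept both, 70 lost their call and 4 reversed. The cause of these changes was not tested. Libraries with equal replicate numbers showed no clear pairing (correlations of deviations from -0.225 to 0.0706). Deviations were taken from the mean of groups of 2 or 3 libraries, so few of these values are independent and they cannot exclude pairing. With the replicate block the counts of called genes were 404 on average, 308 with shDpep2.968 and 312 with shDpep2.759. With no low-count filter they were 1590, 1443, 1131 and, between hairpins, 669. With the GC and length correction they were 2280, 1826, 1782 and, between hairpins, 570; averaged fold changes were correlated with GC content across genes (Spearman -0.26), which are not independent replicates. Hairpin libraries as 1 group gave 540 genes and 2 of the 9 on average. Compared groups only gave 1350 genes with shDpep2.968 and 61 between hairpins, where DESeq2 gave 376, limma-voom 54 and no robust estimation 63. Between hairpins 2 of the 9 genes were called by DESeq2, with no low-count filter and with the GC and length correction. With each library left out the called genes ran from 321 to 1468 on average, 69 to 1309 with shDpep2.968, 253 to 768 with shDpep2.759 and 6 to 1070 between hairpins, and the called members of the 9 from 2 to 4, 1 to 3, 2 to 4 and 0 to 1.

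Reversed values, none past the threshold, were near 0 except for Csf2. Under the replicate block Tnf turned to -0.025 on average and -0.059 with shDpep2.968. With the GC and length correction Tnf turned to 0.033 between hairpins, Adam10 to -0.012 on average and Csf3 to 0.024 on average, 0.089 with shDpep2.968 and 0.13 between hairpins. With libraries left out Tnf ran from -0.020 to 0.15 on average, -0.078 to 0.16 with shDpep2.968, -0.046 to 0.25 with shDpep2.759 and -0.21 to 0.090 between hairpins, and Csf3 from -0.18 to 0.057 with shDpep2.759 and -0.14 to 0.093 between hairpins. Csf2 ran from -0.36 (without shDpep2.759 replicate 1) to 0.60 with shDpep2.759, Adam10 from -0.035 to 0.19 on average and Dpep2 from -0.30 to 0.048 between hairpins. Under the block the calls of Il23a were lost on average (adjusted p = 0.150) and with shDpep2.759 (0.0619), and that of Tnfrsf1b with shDpep2.968 (0.101); it changed no other call of the 9 genes. Depth limits Il23a, Csf1 and Csf2, which had at most 72 counts in any library.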
